A study of Mus musculus with 12 samples.

Results

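The cells described here are keratin-positive epithelial cells recovered from dissociated SCC35 tumours of mice. They were chosen by raw counts of unique molecular identifiers (UMIs, each standing for 1 captured RNA molecule): at least 3 of Krt5, at least 5 of Krt14, and none of Pecam1 or Ptprc. Krt5 and Krt14 pair into the keratin filaments of basal epithelial cells, Pecam1 marks endothelium and Ptprc marks leukocytes. Barcodes also had to show at least 300 genes, at most 15% mitochondrial UMIs, and a top hashtag with at least 20 counts and at least 3 times the second. Of 116375 cells so assigned to a tumour, 95 met the gate. These 4 genes chose the cells, so their levels are given only as a description.

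The study profiled tumours of lines labelled Mif KO (19 and 24) and Mif KO control (15 and 18), at days that a deposited sheet gives as 0, 6, 10 and 16. The labels do not say what day 0 stands for and name no host strain or age. Tumours were dissociated, marked with TotalSeq-C hashtags, sorted as propidium iodide-negative live cells and profiled with the 10x 5′ kit in 6 libraries, of which 4 held a single line and 2 mixed lines. Each hashtag (line, day and letter) is called a tumour below, and 45 tumours had cells. Tumours marked WT in the sheet were put in no group, because the sample labels do not name such a line. Each genotype was represented by 2 lines, so line and genotype cannot be told apart beyond these 4 lines, and within the single-line libraries line and library cannot be told apart.

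Keratinocytes are the epithelial cells of the epidermis and its appendages. Basal keratinocytes rest on a basement membrane through hemidesmosomes, are joined to each other by desmosomes, and give rise to suprabasal cells that exchange Krt5 and Krt14 for Krt1 and Krt10. Hair follicle epithelium keeps the basal keratins and adds its own genes, such as Krt17 and Sox9, and injured epidermis turns on Krt6a and Krt16. Keratinocytes display MHC class I, and interferon gamma induces MHC class II and chemokines such as Cxcl9 in them.

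Across the 6 libraries the totals ran from 151385933 to 239699029 UMIs. A gated cell had a median of 4288 UMIs (range 1610 to 34780), against 5606 in the other Ptprc- and Pecam1-negative cells of the same tumours (called other cells below) and 2823 in Ptprc-positive cells. Of all barcodes, 15834 occurred in more than 1 library. Among the 95 gated cells 15 had such a barcode, and none was gated in another library.

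In the Mif KO tumours with gated cells, the other cells carried Mif at 80.2 to 457 CPM (a gene's UMIs divided by all UMIs of the same cells, scaled to a common total) in line 19 and 384 to 1184 CPM in line 24. In control tumours they carried 1864 to 2692 CPM in line 15 and 1729 to 2238 CPM in line 18. Every one of these Mif KO tumours was below every one of these control tumours. Within the KO lines the mixed libraries were higher than the single-line libraries: line 24 reached 1115 to 1184 CPM there against 384 to 475 CPM.

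Gated cells held a median of 9 Krt5 UMIs (3 to 124) and 12 Krt14 UMIs (5 to 274). Just inside the thresholds lay 12 cells with 3 or 4 Krt5 UMIs and 17 cells with 5 or 6 Krt14 UMIs. Just outside lay 5 cells with 1 or 2 Krt5 UMIs that met the Krt14 threshold and 22 cells with 3 or 4 Krt14 UMIs that met the Krt5 threshold. A further 10 cells met both keratin thresholds but carried Ptprc, and 3 carried Pecam1. Among the assigned cells without Ptprc and Pecam1 that failed the gate, 93087 had no UMI of either keratin and 290 had at least 1.

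The gated cells were few, and their pooled share was highest at day 6. None was found at day 0 among 5769 cells of 7 tumours, which allows a share of up to 0.0520% (3 counts). At day 6 there were 58 among 28885 cells, a share of 0.201% (exact 95% binomial interval 0.153% to 0.259%). At day 10 there were 19 among 36575 cells (0.0519%), and at day 16 there were 18 among 45146 cells (0.0399%). The WT tumours, included in these counts, did not follow this order. With 1, 3 and 1 gated cells they had 0.0314% at day 6, 0.0947% at day 10 and 0.0373% at day 16. Intervals and limits cover counting error only.

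All 12 day 6 tumours held at least 1 gated cell, compared with 9 of 13 at day 10 and 9 of 13 at day 16. Over the 4 lines, the share per tumour was 0.232% ± 0.122 (SD, n = 11) at day 6 and 0.0359% ± 0.0340 (SD, n = 12) at day 16. The share therefore fell by 0.196 percentage points (two-sided permutation test within line, p = 3.0e-05, Benjamini-Hochberg adjusted p = 6.0e-05 over 2 share comparisons). A tumour's share reflects both the number of gated cells and the number of all other cells, and these cannot be told apart in a share. With Ptprc-negative cells as the denominator the shares were 0.298% and 0.0478%. In the 2 mixed libraries alone, with 4 tumours at each of the 2 days, the share was lower at day 16 in each of the 4 lines, by 0.177 points on average. The permutation p of 0.125 is the smallest that 1 tumour per line and day allows, so this test could not pass the threshold.

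Shares were also compared by genotype. At day 6 the 6 control tumours had 0.241% ± 0.135 (SD) and the 5 Mif KO tumours 0.222% ± 0.118 (SD). At day 10 they had 0.0619% ± 0.0861 (SD, n = 6) and 0.0395% ± 0.0269 (SD, n = 6), and at day 16 they had 0.0380% ± 0.0349 (SD, n = 6) and 0.0338% ± 0.0363 (SD, n = 6). Over these days the difference of Mif KO from control was -0.0225 points (permutation within day, p = 0.430, 18 against 17 tumours), within the spread between tumours. With 1 mean per line it was -0.0223 points, where an exact permutation of 2 against 2 lines cannot go below p = 0.333. A gate of at least 5 Krt5 and 10 Krt14 UMIs kept 49 cells in this test and gave -0.0471 points (permutation p = 0.0400), which passed the threshold. Cells thinned to 2000 UMIs gave -0.0535 points (permutation p = 0.0744), and the mixed libraries alone gave 0.00319 points (permutation p = 0.982).

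**Figure D1:**
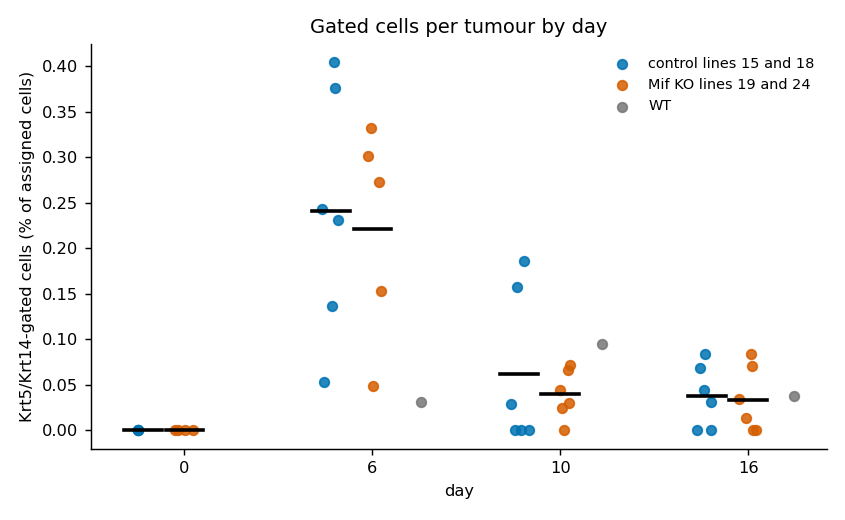
Share of gated cells among all assigned cells of each tumour (vertical axis, percent) by day (horizontal axis). Points are tumours, coloured by control lines, Mif KO lines or WT, and black bars are the mean of each of the 2 groups. All day 0 points lie at 0, and the highest points lie at day 6 in both groups.

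Cells per tumour were few. Of the 30 tumours with gated cells, 12 had 1, 6 had at least 5, and 1 had at least 10 (line 19, day 6, tumour B, with 13 cells). Line 15 gave 18 gated cells, line 18 gave 25, line 19 gave 28, line 24 gave 19 and WT gave 5.

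A part of the gated barcodes also carried the transcripts that filled the other cells. Vim, a mesenchymal intermediate filament gene, and Lgals1, a galectin gene, together made up at least 0.8% of the UMIs in 21 gated barcodes and less in the other 74. This division was drawn after seeing the values. The highest barcode below it had 0.731% and the lowest above it 0.928%. The 21 had a median of 12718 UMIs, against 3627 in the 74. They made up 7 of 58 gated cells at day 6, 4 of 19 at day 10 and 10 of 18 at day 16, including all 6 of line 18, day 16, tumour B.

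In the 21 barcodes summed, Vim stood at 11702 CPM and Spp1, a secreted phosphoprotein gene, at 8433 CPM, against 11141 and 8459 CPM in other cells. In the 74 barcodes they stood at 842 and 565 CPM. The proliferation genes Mki67 and Top2a were at 95.3 and 148 CPM in the 21 and at 9.32 and 24.9 CPM in the 74. The 12 listed cell cycle genes summed to 1045 CPM in the 21, 264 CPM in the 74 and 1132 CPM in other cells. Whether the 21 barcodes hold more than 1 cell was not tested, and levels below are for all 95 unless given for the 74 (the Vim-low cells). Summed levels weigh each barcode by its UMIs, and the 21 held 283284 of the 605222 gated UMIs. Levels of keratinocyte genes were mostly higher in the 74, by over 1.5 times for some of them. Without the 21, the day 16 share was still below day 6, by 0.189 points (permutation p = 0.000400).

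**Figure D2:**
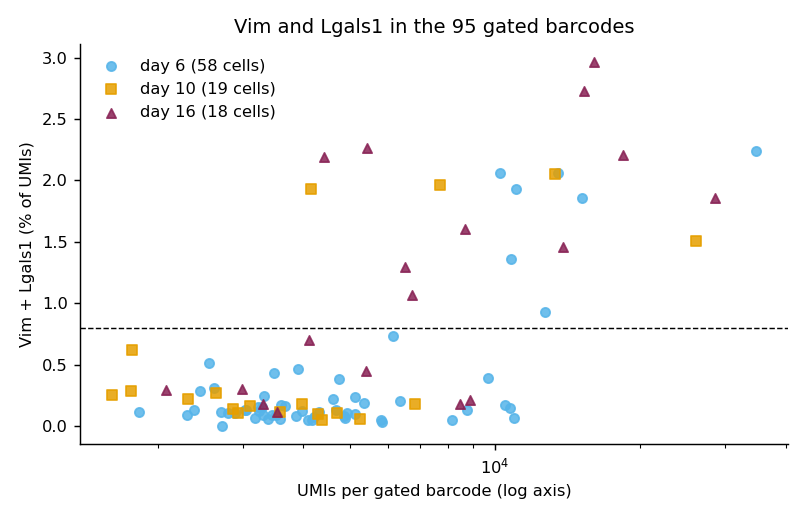
Each of the 95 gated barcodes by its total UMIs (horizontal log axis) and the percent of them from Vim and Lgals1 (vertical axis), coloured by day. The dashed line is 0.8%; 21 barcodes lie above it, and their median total is 12718 UMIs.

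Genes that the gate did not use followed the basal keratinocyte label: 9 of the 10 listed basal genes stood at least 5-fold above other cells, where 667 of 9617 genes with more than 3 UMIs (6.94%) did so. A gene was counted as 5-fold only with more than 3 UMIs in the gated cells. These levels come from UMIs of summed cells, 1 tag per molecule, so gene length does not enter, and no test was made. Lgals7, a stratified epithelial galectin gene, was highest in the list at 2432 CPM (3960 in Vim-low cells, 178 in other cells). Fxyd3, an ion transport regulator gene, was at 1081 CPM (1696 in Vim-low cells) against 0.713, and Sfn, the epithelial 14-3-3 sigma gene, was at 1077 CPM (1730 in Vim-low cells) against 2.53. Perp, a desmosomal effector of p63, was at 440 CPM (668 in Vim-low cells) against 0.404. The exception was Dst, a plakin gene, at 294 CPM against 226.

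Krt15, a keratin of basal and follicle bulge cells, was at 403 CPM (590 in Vim-low cells) against 0.195 in other cells, with a UMI in 69 of the 95 cells. Thinned to 1600 UMIs per cell, 43.2% of the 95 gated cells and 0.0397% of 62653 other cells showed Krt15, shallower cells being left out. Trp63, the master regulator of stratified epithelium, was at 106 CPM against 0.121 and had a UMI in 46 cells. Both genes were thus near absent outside the gate and present in many gated cells despite shallow depth.

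The attachment genes followed the same order, though Itga6, Itgb4, Col17a1 and Dst also stand in the basal list and are counted again here. In the desmosome and adherens junction list, 9 of 12 genes were at least 5-fold above other cells, led by Dsp (desmoplakin) at 529 CPM against 0.273, Jup (plakoglobin) at 175 against 2.58 and Dsc3 (desmocollin) at 164 (252 in Vim-low cells) against 0.125. In the hemidesmosome and basement membrane list 6 of 12 were, among them Col17a1 at 344 CPM (556 in Vim-low cells) against 0.391, Itgb4 at 230 against 3.16 and Lama3, a laminin-332 chain gene, at 116 against 0.150. Itgb1, which pairs with many integrins and was highest in that list, was at 557 CPM against 569 in other cells. Epcam, an epithelial adhesion gene, was at 539 CPM (817 in Vim-low cells) against 0.311. Simple epithelial keratins gave another picture: Krt7 and Krt19 had no UMI, Krt8 had 33.1 CPM and Krt18 213 CPM, the latter at 83.9 in Vim-low cells and 253 in other cells. In the whole luminal or simple epithelium list, which holds these keratins and Epcam, 3 of 8 genes were at least 5-fold above other cells.

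Among 12 listed keratinocyte transcription factors, 6 were at least 5-fold above other cells, including Trp63, which was counted in the basal list too. Klf4 and Klf5, Krüppel-like factors of epithelium, were highest at 618 CPM (287 in other cells) and 172 CPM (21.4). Tfap2c, an AP-2 family factor gene, was at 39.7 CPM against 0.0493.

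Suprabasal genes were at low levels. Of the 10 listed, 3 were at least 5-fold above other cells, and the list summed to 82.6 CPM against 1.98. The other 7 had 3 or fewer UMIs and so could not be counted as 5-fold. Of these 7, 5 had no UMI in any gated cell (Krt1, Dsg1a, Dsc1, Calm4 and Klk7), which allows up to 4.96 CPM each. Sbsn, a suprabasal secreted protein gene, was at 43.0 CPM. Krt10, the suprabasal keratin gene, was at 18.2 CPM with 11 UMI-bearing cells, none with 2 or more. Ivl and Lor, cornified envelope genes, were at 13.2 and 4.96 CPM.

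Hair follicle genes were common. Krt17, the keratin of the outer root sheath, was at 1019 CPM (1534 in Vim-low cells) against 0.376, in 79 cells. Sox9, the follicle stem cell factor, was at 362 CPM against 111 in other cells, in 64 cells. Lgr5, a marker of lower bulge and hair germ, was at 92.5 CPM against 0.218, in 35 cells, and Lhx2, a follicle stem cell factor, was at 43.0 against 0.0493, in 19 cells. In all 6 of the 12 listed genes were at least 5-fold above other cells, while Krt75 and Defb6 had no UMI. Krt15 or Krt17 had a UMI in 91 of 95 cells and both did in 57. Krt79, a keratin of the upper follicle, had a UMI in 4 cells, 3 of which held at least 8 UMIs, in 3 tumours of 3 lines.

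The injury keratins Krt6a and Krt16 marked few cells. Of the 10 genes listed for wound-activated keratinocytes, 2 were at least 5-fold above other cells. Krt6a was at 116 CPM in 20 cells, of which 6 had at least 3 UMIs, and Krt16 was at 74.4 CPM in 14 cells. The Sprr genes and S100a8 and S100a9 of this list were at or below 39.7 CPM. Acta2, a contractile actin gene, was at 79.3 CPM in 16 cells, all of the 10 cells with 2 or more UMIs being Vim-low. Myh11 and Cnn1, the other contractile markers of myoepithelium, had no UMI.

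**Figure D3:**
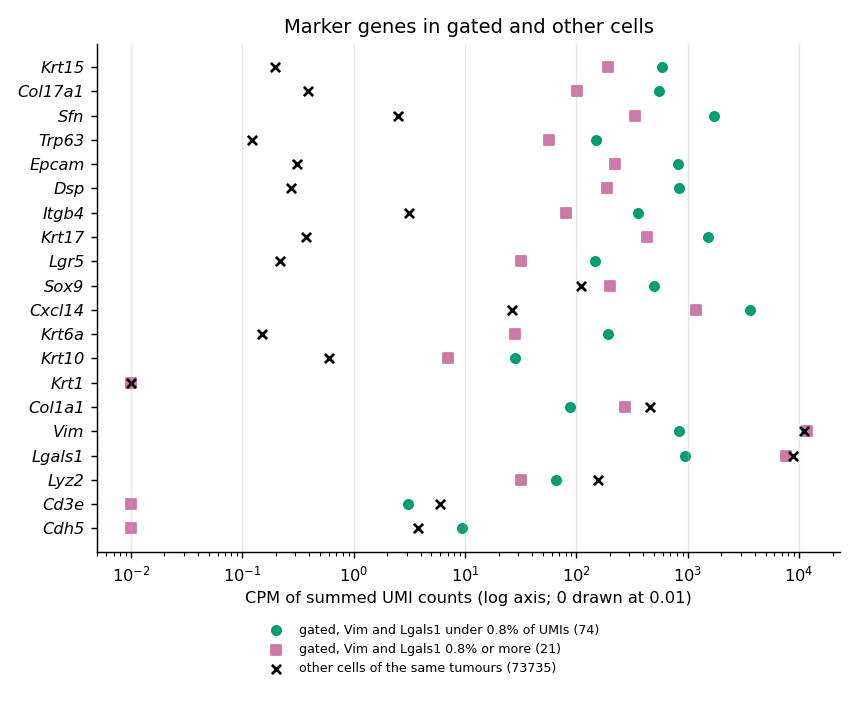
Level of 20 genes in CPM of summed UMIs (horizontal log axis, 0 drawn at 0.01) in Vim-low gated cells (circles), Vim-high gated cells (squares) and other cells of the same tumours (crosses). Krt15, Col17a1, Dsp and Krt17 lie to the right of the crosses in both gated sets, Krt1 lies at 0 in both, and Vim and Lgals1 of the 21 Vim-high barcodes lie at the crosses.

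Secreted factors and stress genes were also measured. Cxcl14, a chemokine made constitutively by skin epithelium, was at 2500 CPM (3647 in Vim-low cells) against 26.2 in other cells, in 90 of 95 cells. Apoe, an apolipoprotein gene, was at 3020 CPM (4793 in Vim-low cells) against 121, in 93 cells, and Slpi, a protease inhibitor gene, at 1730 against 13.2, in 55 cells. The last 2 were named after their values were seen. Of the 19 measured keratinocyte signal genes 3 were at least 5-fold above other cells: Cxcl14, the Wnt ligand gene Wnt4 (44.6 CPM against 0.0873) and the EGF receptor ligand gene Tgfa (31.4 against 0.0569). The epidermal alarmin genes Il1a and Tslp had 1 UMI each. The Notch ligand genes Jag1 and Jag2 were at 101 and 46.3 CPM, against 3.70 and 0.518, and 3 of the 8 listed Notch genes were at least 5-fold above other cells. Of the 12 immediate early and heat shock genes, which tissue dissociation can induce, Jun was at 2105 CPM against 739, Fos at 1897 against 1244 and Atf3 at 1155 against 346. Hspa1a, at 134 against 23.6, was the 1 gene of the 12 past 5-fold.

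Markers of other cell types ranged from near 0 to above the level of other cells. The 5 T cell genes summed to 3.30 CPM with Cd3g, Cd3d and Trac at 0, and the 5 endothelial genes to 9.91 CPM with Kdr and Cldn5 at 0. The 7 melanocyte genes summed to 23.1 CPM, all from Mitf, against 15.3 in other cells. The 5 leukocyte genes summed to 159 CPM, against 226 in other cells and 2580 in Ptprc-positive cells. The gate itself set Ptprc of this list and Pecam1 of the endothelial list to 0, and Ptprc-positive cells were chosen to carry Ptprc. The 6 macrophage genes summed to 3316 CPM, mostly from Apoe, against 580 in other cells. Lyz2 was at 49.6 CPM against 1328 in Ptprc-positive cells. The 6 fibroblast genes summed to 522 CPM (248 in Vim-low cells), against 1131 in other cells. The 4 genes of the Langerhans cell list summed to 507 CPM, against 462 in other cells and 1791 in Ptprc-positive cells, with its defining lectin gene Cd207 at 0 and Mfge8 highest at 238 CPM.

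The comparison of genotypes asked whether gated cells of Mif KO and control tumours differed. Counts were summed per tumour and compared in edgeR's quasi-likelihood test with day as a term. A minimum of 10 gated cells left 1 tumour and no test, so the values below come from the 6 tumours with at least 5: on the control side line 15 tumour C and line 18 tumour A of day 6 and line 18 tumour B of day 16, on the Mif KO side line 19 tumours A and B and line 24 tumour C, all of day 6. They held 47 cells. No library gave tumours of both genotypes to this set, so library and genotype cannot be told apart in this contrast. Since 1 of the 6 tumours was of day 16, the day term fits that tumour exactly, and the genotype contrast rests on the 2 control and 3 KO tumours of day 6. Each letter is a separate hashtag, but whether letters stand for separate mice is not stated, so p-values measure the spread between these samples.

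In gated cells of these tumours, 4 genes differed by genotype. Of 1066 genes tested, 4 passed an adjusted p of 0.05 (0.375%), all higher in Mif KO: Ifi27l2a, B2m, Cd74 and Isg15. Ifi27l2a is an interferon-induced mitochondrial protein gene, B2m encodes the shared light chain of MHC class I, Cd74 the invariant chain of MHC class II and a receptor for MIF, and Isg15 an interferon-induced ubiquitin-like modifier.

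The windows upstream of B2m and Isg15 are shown because these genes are 2 of the 4 and their interferon control elements are well known. Each is the 250 bases before the RefSeq start on GRCm38.p6, 5′ to 3′ on the gene's strand, at chr2:122147437-122147686 (plus strand) for B2m and chr4:156200819-156201068 (minus strand) for Isg15. Capitals mark the core of the interferon-stimulated response element, read as GAAA, any 2 bases and GAAA again, which was searched on both strands.
B2m: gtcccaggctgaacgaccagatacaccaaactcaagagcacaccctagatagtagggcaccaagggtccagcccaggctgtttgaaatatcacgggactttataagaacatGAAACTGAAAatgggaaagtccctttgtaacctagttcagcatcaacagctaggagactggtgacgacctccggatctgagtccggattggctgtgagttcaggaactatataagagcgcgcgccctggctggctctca
Isg15: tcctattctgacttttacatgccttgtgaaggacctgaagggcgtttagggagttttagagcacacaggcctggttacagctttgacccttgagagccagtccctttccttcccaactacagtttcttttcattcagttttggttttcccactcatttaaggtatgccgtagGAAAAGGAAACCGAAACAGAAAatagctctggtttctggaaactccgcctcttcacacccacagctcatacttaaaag
B2m held 1 match, at bases 112 to 121 counted from the left end, and Isg15 held 3 that overlap, at bases 173 to 194. The letters occur in 978 of 32851 windows of that length (2.98%). The gamma-activated site TTCNNNGAA, found in 7.02% of windows, had no match in either. The window of Cxcl9, a gene described below, was searched in the same way and held neither motif. A match describes letters only.

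Ifi27l2a was at 2278, 1516 and 2207 CPM in line 19 tumours A and B and line 24 tumour C, and at 262, 106 and 35.4 CPM in line 15 tumour C and line 18 tumours A and B. The fitted log2 difference was 3.51 ± 0.44 (SE), with an edgeR adjusted p of 0.0160. Because the 4 genes were called from these tumours, separation of the groups in their values is no further support.

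B2m was at 4598, 4017 and 3923 CPM in the same KO tumours and at 1570, 1518 and 1609 CPM in the control tumours. The fitted difference was 1.52 ± 0.22 (SE) on the log2 scale, with an edgeR adjusted p of 0.0272.

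Cd74 was at 1745, 2804 and 700.5 CPM in the KO tumours and at 74.8, 35.3 and 0 CPM in the control tumours, where it rested on 3 UMIs in all against 290. The ratio of the summed levels was 75.3 (exact 95% interval 25.5 to 367, counting error only). Of the 111647 control UMIs behind this ratio, 56564 were of the day 16 tumour, which held no Cd74 UMI. The day term of the fit sets that tumour aside, but the ratio does not. On the log2 scale edgeR fitted 5.05 ± 0.80 (SE), with an adjusted p of 0.0280.

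Isg15 was at 1108, 515 and 911 CPM in the KO tumours and at 37.4, 70.6 and 141 CPM in the control tumours. The log2 difference came to 3.94 ± 0.63 (SE), with an edgeR adjusted p of 0.0280.

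Without the day term, where all 3 control tumours enter, edgeR called 6 of 579 genes, with log2 differences of 4.04 for Ifi27l2a, 1.38 for B2m, 5.82 for Cd74 and 3.05 for Isg15. The pooled UMI counts of all 6 tumours gave an Isg15 ratio of 8.08 (exact 95% interval 4.35 to 16.6, counting error only).

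The counts over the lists that hold these 4 genes include them. Of the 14 listed antigen presentation genes 10 passed the count filter, all 10 higher in Mif KO, with a median log2 fold change of 2.23 and 2 called. Of the 16 listed interferon response genes 7 passed the filter, all 7 higher, with a median of 3.94, which is the value of Isg15 itself, and 2 called. Over all 1066 genes the median was 0.00 and 50.1% were higher. A gene near 0 in the control tumours passed the filter only through the KO tumours, so these counts are no independent support.

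H2-K1, an MHC class I heavy chain gene, was at 4803, 2865 and 3152 CPM in the KO tumours and 1832, 882 and 955 CPM in the controls (log2 1.50, SE 0.36, edgeR adjusted p = 0.170). H2-Aa, an MHC class II chain gene, was at 164, 591 and 175 CPM in the KO tumours and had no UMI in the controls. In line 19 tumour B, 1 cell held 32 of the 39 H2-Aa UMIs and 120 of the 185 Cd74 UMIs. Cxcl9, the interferon gamma-induced chemokine gene, was at 7123, 621 and 3853 CPM in the KO tumours and 74.8, 35.3 and 0 CPM in the controls, which held 3 UMIs in all (edgeR adjusted p = 0.0877). In line 19 tumour A, 1 cell held 159 of the Cxcl9 UMIs and the next highest cell 81. These 3 genes were named after their values were seen. The basal keratinocyte list showed no such direction: 4 of its 10 tested genes were higher and 6 lower, none called, with a median of -0.13.

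Other cells of the same tumours showed part of this. Ifi27l2a in other cells was at 408, 407 and 450 CPM in those 3 KO tumours, against 344 and 78.3 CPM in the 2 day 6 controls. B2m was at 1856, 1865 and 2315 CPM against 1931 and 1227 CPM, and Isg15 at 533, 535 and 684 CPM against 261 and 162 CPM. Cd74 was at 430, 399 and 644 CPM against 947 and 205 CPM. The difference between gated and other cells in this contrast was not tested.

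Markers of other cell types were uneven over the 6 tumours. The 5 leukocyte genes had no UMI in the 3 control tumours and in line 24 tumour C, and summed to 82.1 and 637 CPM in line 19 tumours A and B. Of these genes, Ptprc was 0 by the gate. The 6 macrophage genes without Apoe summed to 20.5, 30.3 and 105 CPM in the KO tumours and 74.8, 0 and 70.7 CPM in the controls. The 6 fibroblast genes summed to 1478, 970 and 35.0 CPM in the KO tumours and 112, 212 and 1998 CPM in the controls. The 4 Langerhans list genes, of which Cd207 was at 0 in all gated cells and H2-Aa is also an antigen presentation gene, summed to 411, 834 and 630 CPM in the KO tumours and 187, 424 and 230 CPM in the controls. Among all 17 gated cells with at least 5 Cd74 UMIs, 13 had no UMI of Lyz2, C1qa, C1qb or C1qc. With the 22 barcodes that carried any of those 4 genes left out, an alternative added after seeing the data, 3 KO tumours and 1 control tumour still had 5 cells. The log2 differences were then 4.30 for Ifi27l2a, 1.56 for B2m, 5.65 for Cd74 and 3.60 for Isg15, and edgeR called 0 of 899 genes (66 at an unadjusted p under 0.05). The part of the leukocyte, fibroblast and Langerhans list genes in the result was not tested.

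The calls rested on few tumours and lines. Leaving out line 18 or 15 left 1 day 6 control tumour in the contrast, and leaving out line 19 left 1 KO tumour. That side then has no spread of its own, so only log2 differences are given here. Without line 18 they were 3.01 for Ifi27l2a, 1.51 for B2m, 4.64 for Cd74 and 4.47 for Isg15. Without line 15 they were 4.30, 1.57, 5.67 and 3.62 in the same order. Without line 19 they were 3.63, 1.41, 3.65 and 4.04. Line 18 tumour B of day 16 consisted of Vim-high barcodes alone. With Vim-low cells, 2 control and 3 KO tumours remained. Of 481 genes Ifi27l2a (log2 3.08) and B2m (1.39) were then called higher and the ferritin gene Fth1 lower (-0.91). Cd74 (log2 4.79) and Isg15 (log2 4.27) missed with edgeR adjusted p = 0.0579 and 0.0520. Summed per line, 9 of 2426 genes passed (0.371%), among them Cd74, Ifi27l2a, Cxcl9 and the MHC class II genes H2-Aa, H2-Ab1 and H2-Eb1. B2m (log2 0.89, edgeR adjusted p = 0.288) and Isg15 (log2 1.78, edgeR adjusted p = 0.470) did not pass. Single cells weigh in these class II sums: in line 24 the gated cell of day 16 tumour B, which held all 6 macrophage genes, carried 18 of 24 H2-Aa UMIs and 34 of 60 Cd74 UMIs. In line 19 the highest cells, with 32 and 31 of 82 H2-Aa UMIs, were of day 6 tumours B and C. All 3 macrophage genes tested in that fit were higher in Mif KO, none called.

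Taking every day 6 tumour with at least 1 gated cell, 6 control against 5 KO, edgeR called 0 of 392 genes (0%), with 19 at an unadjusted p under 0.05, and DESeq2 called 1. Ifi27l2a then ran from 41.2 to 2278 CPM in the KO tumours (median 1516) and from 0 to 1191 CPM in the controls (median 307), so the groups overlapped. The low KO values were line 19 tumour C, at 41.2 CPM with 2 cells, and line 24 tumour A, at 491 CPM with 1 cell. The high control value was line 18 tumour C, with 1 cell. Of these 3, line 19 tumour C and line 18 tumour C were in the mixed libraries, and their gated barcodes were all Vim-high. With Vim-low cells only, 4 of 293 genes passed, Ifi27l2a higher (log2 2.63, edgeR adjusted p = 0.0248) and Actg1, Ctsl and Fth1 lower.

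Cd74 was also called over all days. Over 13 control and 14 KO tumours with at least 1 gated cell, edgeR called 1 of 306 genes (0.327%), Cd74, which was 5.25 ± 0.84 (SE) higher on the log2 scale, with an adjusted p of 3.2e-04. Without line 15 it missed the threshold (log2 4.58, edgeR adjusted p = 0.129), and without line 19 it did not pass the count filter. Within day 6, leaving out line 19 gave Cd74 a log2 difference of 2.44 (edgeR adjusted p = 0.510). In gated cells it ran from 0 to 3912 CPM (median 1745) in KO and from 0 to 397 CPM (median 26.9) in control tumours of day 6. The highest of these KO values was line 19 tumour C, where 1 Vim-high barcode held all 95 Cd74 UMIs. At day 16 Cd74 ran from 109 to 9632 CPM (median 731) in 4 KO tumours with 6 gated cells. In 4 control tumours with 11 gated cells no Cd74 UMI was found. The lowest of these KO values was 1 UMI, below the 132 CPM that 3 counts would make in control line 15. The highest was 34 UMIs in the single gated cell of line 24 tumour B, which also held all 6 macrophage genes (10482 CPM without Apoe) and leukocyte genes at 2550 CPM. The single gated cell of line 19 tumour B, with 33 Cd74 UMIs, was Vim-high. Without the 22 barcodes that carried Lyz2 or C1q UMIs, Cd74 was 6.40 ± 0.90 (SE) higher on the log2 scale and the 1 gene called of 294, with an edgeR adjusted p of 7.2e-05 (11 control and 12 KO tumours). At day 10 the highest KO value was 246 CPM and the highest control value 68.1 CPM. The groups thus overlapped at days 6 and 10.

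**Figure D4:**
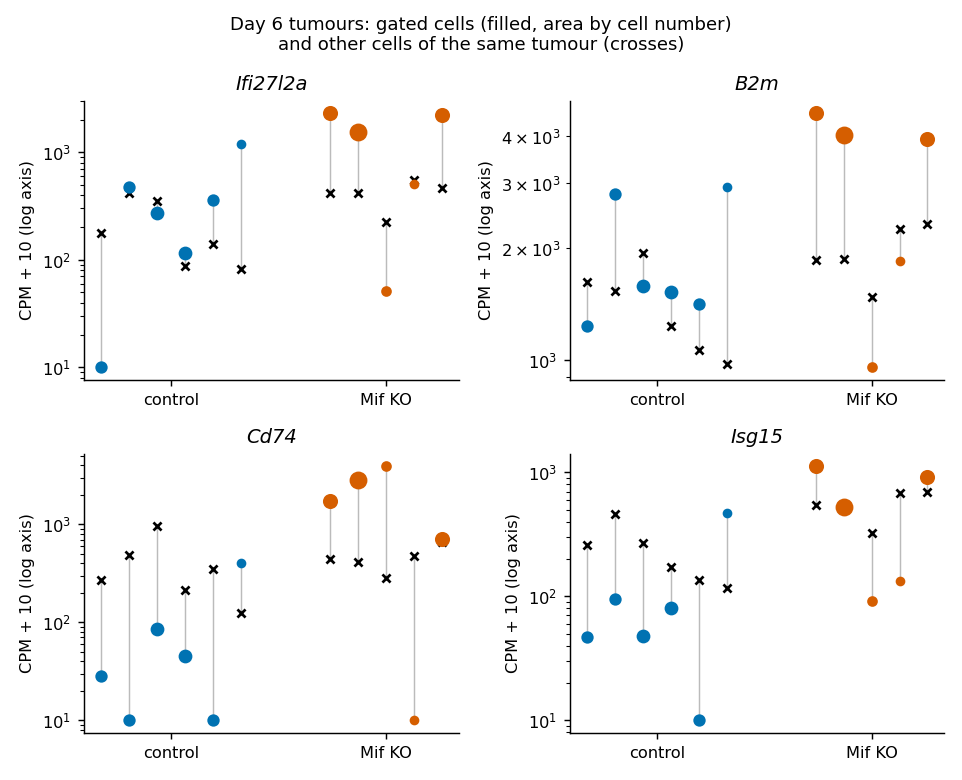
Ifi27l2a, B2m, Cd74 and Isg15 in the 11 day 6 tumours of the 4 lines, as CPM + 10 (vertical log axis) by genotype (horizontal axis). Filled points are gated cells, with area growing with their number, crosses are other cells of the same tumour, and grey lines join them. The 3 large KO points lie above the large control points in each panel, and the smallest points of both groups overlap.

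Single gated cells differed widely in these genes. Cxcl9 had at least 5 UMIs in 20 cells of 8 tumours, 17 of them at day 6, and Cd74 in 17 cells of 8 tumours, 14 of them at day 6. Both did in 7 cells. Of the 20 cells with Cxcl9, 19 were Vim-low and 15 had no UMI of Lyz2 or the C1q genes. Over all tumours of a group, Cxcl9 pooled to 2840 CPM in KO and 107 CPM in control gated cells at day 6, to 0 and 176 CPM at day 10, and to 272 and 0 CPM at day 16, where the KO value was 13 UMIs.

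Expression was also compared between days. Over the same 27 tumours with genotype as a term, edgeR called 0 of 306 genes (0%) between day 16 and day 6 (8 against 11 tumours), with 14 at an unadjusted p under 0.05, and DESeq2 called 0. Without the count filter edgeR called 43 of 12883 genes. All 5 tested basal genes were lower at day 16, with a median log2 fold change of -0.73 against 0.00 over all genes, and none was called. With Vim-low cells only, 2 of 4 were lower, and the median was -0.01. The day 16 gated cells held 10 Vim-high barcodes of 18, as given above.

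Mif was the last comparison: it asked whether gated cells of a KO tumour carried the gene at the level of the tumour's other cells. In the 1 KO tumour with at least 10 gated cells, line 19, day 6, tumour B, Mif was at 531 CPM in gated cells and 104 CPM in other cells, a log2 ratio (CPM + 1) of 2.34 with no test. In the KO tumours with at least 5 gated cells, gated Mif was at 1006, 531 and 700.5 CPM in line 19 tumours A and B and line 24 tumour C of day 6, against 113, 104 and 1162 CPM in other cells. It was higher in 2 of the 3 (mean log2 ratio 1.59, exact sign-flip permutation p = 0.5, where 3 tumours cannot go below 0.25).

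With every KO tumour that had a gated cell, a choice made after seeing the data, gated Mif ran from 280 to 2577 CPM (median 965) and other-cell Mif from 80.2 to 1184 CPM (median 440). Gated cells were higher in 12 of 14 tumours (mean log2 ratio 1.60, exact sign-flip permutation p = 0.00146). Line 19 was higher in 7 of 7 (mean 2.39, exact permutation p = 0.0156, the smallest 7 tumours allow), and line 24 in 5 of 7 (mean 0.82, exact permutation p = 0.156). Split by library, the single-line libraries gave 9 of 9 higher (mean 2.33, exact permutation p = 0.00391) and the mixed libraries 3 of 5 (mean 0.31, exact permutation p = 0.5625). In the mixed libraries the other cells averaged 868 CPM, against 251 CPM in the single-line libraries, while the gated cells averaged 1051 and 1147 CPM. Several of the 14 tumours had only 1 gated cell. All gated barcodes were Vim-high in line 19 tumours C of day 6, B of day 10 and B of day 16. The same held for line 24 tumours C of day 10 and A of day 16. With Vim-low cells alone, gated Mif was higher in 7 of 9 KO tumours (mean log2 ratio 1.73, exact sign-flip permutation p = 0.0195).

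Control tumours went the other way. Gated cells were higher in 3 of 13 (mean log2 ratio -0.86, exact sign-flip permutation p = 0.00513), with a median of 1839 CPM in gated and 2156 CPM in other cells. The planned Mif comparison covered KO tumours only. All gated barcodes of those 3 control tumours were Vim-high. The lowest ratios, of line 18 tumour C of day 16 and tumour B of day 6, rested on 1 and 2 Mif UMIs. The Vim-low cells of control line 15 pooled to 1458 CPM of Mif, above the 672 CPM of KO line 19 and the 1104 CPM of KO line 24. Those of control line 18 pooled to 620 CPM, below both KO lines. Over the 6 tumours with at least 5 gated cells, Mif pooled to 726 CPM in KO and 1550 CPM in control gated cells, a ratio of 0.469 (exact 95% interval 0.364 to 0.601, counting error only). The control values were 860 and 847 CPM at day 6 and 2228 CPM in the day 16 tumour. The day 16 tumour held 126 of the 173 control Mif UMIs, all in Vim-high barcodes. In the fit with a day term, which sets that tumour aside, Mif differed by -0.12 ± 0.35 (SE) on the log2 scale, with an edgeR adjusted p of 0.928, and without the day term by -0.92 ± 0.47 (SE), with an edgeR adjusted p of 0.393.

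**Figure D5:**
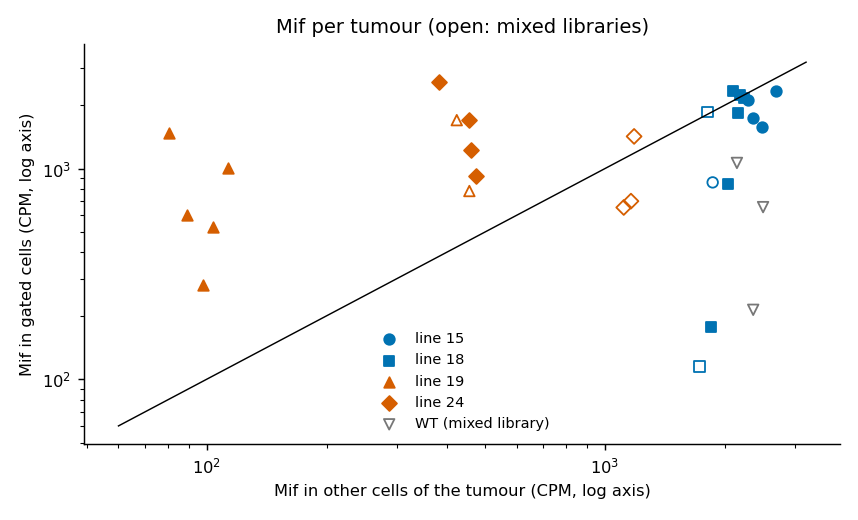
Mif in gated cells (vertical log axis, CPM) against Mif in other cells of the same tumour (horizontal log axis, CPM), 1 point per tumour, with shape by line and open points for the mixed libraries. The line marks equal levels; 12 of 14 Mif KO tumours lie above it and 10 of 13 control tumours lie below it.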

How the data were processed

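The matrices of the 6 libraries, as the authors deposited them, hold unnormalized UMI counts of genes and hashtags; Cell Ranger 6.0.0 and mm10 are named in the submitters' processing notes. No read-level step was repeated. Tumours came from the deposited hashtag sheet, and groups from the labels. Gated cells, gene lists and comparisons were chosen with earlier results of these data known. CPM are UMIs of summed cells scaled to a common total. Doublets were removed only through the hashtag rule (top at least 3 times the second), and no doublet caller was run. Shares were tested by permutation with 100000 resamples. Genes were tested in edgeR 4.0.16 (filterByExpr, TMM, quasi-likelihood, Benjamini-Hochberg, threshold 0.05, R 4.3.3), checked on simulated data, with standard errors derived from the fold change and F statistic. DESeq2 1.42.0 was an alternative. The planned minimum of 10 cells per tumour gave no test, so a minimum of 5 was used. Mif was compared within tumours by exact sign-flip permutation of log2(CPM + 1). Genes were named by rule: Mif, the 2 to 4 highest members of each list, and called genes with the largest changes. Others were named after their values were seen. Of 20 listed keratinocyte signal genes, 19 were matched. Promoter windows are from RefSeq. Hashtag libraries of their own were not analysed here.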

Additional observations from a re-analysis of the deposited data

Results flagged for a closer look

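In 4 cases, results of single tumours stood apart from their group by Dixon's criterion, among 21 groups of 4 to 10 tumours checked, where chance marks about 1 in 20 groups. Each rests on 1 or 2 gated cells. Mif in gated cells of Mif KO tumours at day 6 was highest in line 24 tumour A, at 2577 CPM (1 cell), with the next tumour at 1006 CPM. Mif in gated cells of control tumours at day 16 was lowest in line 18 tumour C, at 115 CPM (2 cells), with the next at 2113 CPM. Cd74 and Isg15 in gated cells of control tumours at day 6 were both highest in line 18 tumour C (1 cell), at 397 CPM with the next at 74.8 CPM, and at 463 CPM with the next at 84.5 CPM.

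Barcodes without a hashtag call also held gated cells. Of 47491 passing barcodes without a call, 58 met the gate, or 0.122% (exact 95% binomial interval 0.0927% to 0.158%), against 0.0816% of assigned cells. Of the 58, 8 had a top hashtag below 20 counts and 50 had a top hashtag less than 3 times the second. At least 0.8% of UMIs came from Vim and Lgals1 in 24 of them. Their summed counts held Krt15 at 335 CPM, Sfn at 743 CPM and Cxcl14 at 2232 CPM.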

How the results depend on the processing

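The difference in share between genotypes was -0.0471 points with the stricter gate (past the threshold) and 0.00319 points in the mixed libraries alone (opposite sign), -0.0535 points in cells thinned to 2000 UMIs, and from -0.0348 to -0.0102 points with 1 line left out. The fall in share from day 6 to day 16 was -0.177 points in the mixed libraries (where the design allows no smaller p than 0.125), -0.118 with the stricter gate, -0.131 in thinned cells, -0.271 with the looser gate, and from -0.218 to -0.169 points with 1 line left out, past the threshold each time. The number of genes called between genotypes was 37 without the count filter (34 higher), 9 with 1 sum per line, 0 in all day 6 tumours (1 in DESeq2), 1 over all tumours (also 1 without barcodes holding Lyz2 or C1q UMIs), 0 without such barcodes at 5 cells per tumour, and from 0 to 41 with 1 line left out (from 0 to 1 within day 6, from 0 to 10 over all tumours, where leaving out line 18 gave 2). Between days it was 43 without the count filter, against 0. The Mif ratio of 2.34 in 1 tumour had no test; with at least 1 cell per tumour it was 1.60, in single-line libraries 2.33 and in Vim-low cells 1.73, and with 1 line left out from 0.82 to 2.39. Each of the 4 called genes stayed higher in Mif KO under every alternative that tested it (24 for B2m, 23 for Ifi27l2a, 22 for Cd74, 17 for Isg15), and was called in 7, 10, 12 and 6 of them. The stricter cell filter removed no gated cell and is not counted there, nor is any setting in which the gene failed the count filter. These alternatives share tumours with the fit that called the genes, so their number is no independent support. The cause of these changes was not tested, beyond the number of tumours and genes that each setting leaves. Pairing group means within mixed library and day (5 pairs) gave -0.00863 points for the genotype share (exact permutation p = 0.9375), and no other pairing was tried because the lines share no replicate number. Not run, because too few tumours were left or the fit could not be made: a minimum of 20 cells, the mixed libraries alone, a library term, the stricter gate and barcodes without collagen UMIs, all for the gene comparison. With 95 cells and 605222 UMIs in all, a gene with no UMI could be at up to 4.96 CPM.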

Other observations

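Gated cells of the tumours marked WT, all from 1 mixed library and in no group, numbered 1 at day 6, 3 at day 10 and 1 at day 16. The day 6 cell held Cxcl9 at 12810 CPM (60 UMIs), the highest level of any tumour, and the day 16 cell held it at 5081 CPM (43 UMIs), while the 3 day 10 cells held none. The day 16 cell also held all 6 macrophage genes (88 UMIs without Apoe, 10398 CPM) and 19 leukocyte UMIs (2245 CPM). Mif in these cells was at 213, 656 and 1063 CPM, below the 2357, 2495 and 2145 CPM of other cells in the same tumours.

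Some genes were carried by a few gated cells. Cstdc5, a stefin-like gene, had a UMI in 18 of the 95 cells of 11 tumours and stood at 398 CPM against 0.0285 in other cells. Krt5 reached at least 100 UMIs in 4 cells, all Vim-low, from 3 tumours of 2 lines. Mki67 and Top2a were both present in 9 cells, of which 1 was Vim-low. Krt15 stood at 212 CPM for line 15 and 197 CPM for line 18, against 393 CPM in line 19 and 903 CPM in line 24. The WT gated cells lay at 966 CPM (23 UMIs). In the tumours with at least 5 cells Mif KO was 2.01 ± 0.59 (SE) above control on the log2 scale, with an edgeR adjusted p of 0.276.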
